A study of Mus musculus with 10 samples.

Results

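The genes described here are 8 kallikreins of the cluster on mouse chromosome 7, Klk1, Klk1b3, Klk1b4, Klk1b22, Klk8, Klk10, Klk11 and Klk13, of 35288 genes in the table. They were picked by gene symbol, and the list was drawn up with their values in these same libraries known. It coincides with the kallikreins that averaged at least 1 TPM (a transcript level corrected for length and for the size of the library) over the 10 libraries. Just inside that limit lay Klk1b3, with a mean of 1.55 TPM, and just outside lay Klk14, with 0.99 TPM. Because the members' values entered their choice, their levels and differences are given as a description, and calls from the fit over all genes are printed beside them without being read as independent evidence.

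The tumors come from mice that develop small cell lung cancer, a neuroendocrine cancer prone to spread to the liver, and bulk RNA of macrodissected tissue was sequenced. The 4 groups were lung tumors of RPR2 mice (JHK1373, JHK1394 and JHK1548), lung tumors of RPR2;Nfibf/f mice (JHK997, JHK1398 and JHK1399), liver metastases of RPR2 mice (JHK1373 and JHK1394) and liver metastases of RPR2;Nfibf/f mice (JHK1398 and JHK1399). Nfibf/f means 2 floxed alleles of Nfib, the gene of a nuclear factor I transcription factor, and these mice are called Nfib-floxed here. All groups carry the RPR2 alleles, a name used in this field for conditional deletion of Rb1, Trp53 and Rbl2 that the labels do not spell out. The labels used here state neither how Cre was delivered nor the ages of the mice. Of 6 mice, 4 gave both tissues.

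Kallikreins are secreted trypsin- or chymotrypsin-like serine proteases, made as inactive precursors that are cut to become active. Tissue kallikrein, the product of Klk1, releases kinins from kininogens, and kinins widen vessels through the bradykinin receptors. Mice carry a run of additional Klk1-type copies, the Klk1b genes, whose products are best known from the salivary gland, where some of them bind or process growth factors such as epidermal growth factor (EGF). Klk8 (neuropsin), Klk10, Klk11 and Klk13 belong to the other branch of the family, known from skin, brain and various epithelia.

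The 4 Klk1-type members differ little in sequence, and this bears on how well reads can be assigned to each of them. Coding sequences (GENCODE M21, GRCm38) were 82.8% to 88.5% identical among Klk1, Klk1b3, Klk1b4 and Klk1b22. They were 49.8% to 55.4% identical in all pairs with or among Klk8, Klk10, Klk11 and Klk13. The stretch around the active-site serine codon, coding bases 592 to 684 counted from 1 at the start codon of Klk1, is shown for the 4 copies because it holds both runs they share and bases that tell them apart. Capitals mark bases that differ from Klk1.
Klk1: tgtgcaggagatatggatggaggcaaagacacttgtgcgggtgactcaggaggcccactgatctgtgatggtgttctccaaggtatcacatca
Klk1b3: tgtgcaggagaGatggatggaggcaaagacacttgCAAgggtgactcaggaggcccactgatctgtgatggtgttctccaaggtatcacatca
Klk1b4: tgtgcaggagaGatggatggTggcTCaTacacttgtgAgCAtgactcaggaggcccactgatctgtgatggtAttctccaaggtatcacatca
Klk1b22: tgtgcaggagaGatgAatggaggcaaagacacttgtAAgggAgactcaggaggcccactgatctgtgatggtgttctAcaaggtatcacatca
Over these 93 bases Klk1b3 differed from Klk1 at 4, Klk1b22 at 6 and Klk1b4 at 9. The longest run that Klk1b22 shared with Klk1 in this window was 35 bases, and for Klk1b3 it was 55.

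**Figure D1:**
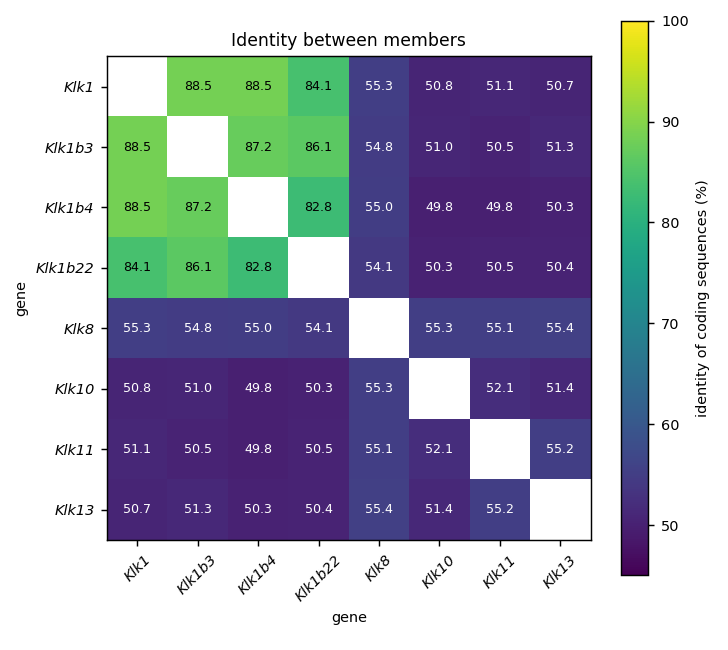
Identity between the coding sequences of the 8 members, in percent of aligned columns, with genes on both axes and color giving the percentage. The 4 Klk1-type genes form a block at 82.8% to 88.5%, and all other pairs lie at 49.8% to 55.4%.

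Counting stretches of 31 bases, the share found also in transcripts of other genes was 40.5% for Klk1, 41.1% for Klk1b3, 39.4% for Klk1b4 and 41.1% for Klk1b22. Klk1 shared most with Klk1b5, to which its coding sequence was 95.2% identical. Klk1b22 shared 65 such stretches with Klk1, and 118 with Klk1b16, the gene with which it shared most. Klk10 and Klk13 shared none, and Klk11 shared 1, with Klk12. Klk8 shared 22.9%, all with 2310002F09Rik, an antisense gene whose exons overlap it by 382 bases and which is not analysed here. Whether the libraries keep strand is not given, so reads from the overlap of Klk8 and its antisense partner cannot be told apart. The other 77.1% of the stretches of Klk8 were its own. The levels of Klk1, Klk1b3, Klk1b4 and Klk1b22 are therefore uncertain to the extent that shared reads were divided among copies, and this was not tested.

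The members are all on the plus strand, in a cluster of 37 Klk genes of the table that spans chr7:43690418-44229618 (GRCm38, 539.2 kb). Klk13 (chr7:43712567-43727534), Klk11 (chr7:43774604-43779263), Klk10 (chr7:43781035-43785410) and Klk8 (chr7:43797577-43803826) lie at one end. Klk1b22 (chr7:44112673-44116922), Klk1b3 (chr7:44198191-44202352), Klk1b4 (chr7:44207435-44211754) and Klk1 (chr7:44225360-44229618) lie at the other. Of the remaining genes, 11 are named as pseudogenes and 18 are not. Of those 18, 7 were listed at 0 in all 10 libraries, among them Klk4, Klk5, Klk6 and Klk15. Klk14 reached 4.35 TPM, in the lung tumor of RPR2 mouse JHK1394, and no other gene of the 18 exceeded 1.08 TPM (Klk1b16). Klk1b5, the closest copy of Klk1, stayed at or below 0.856 TPM.

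**Figure D2:**
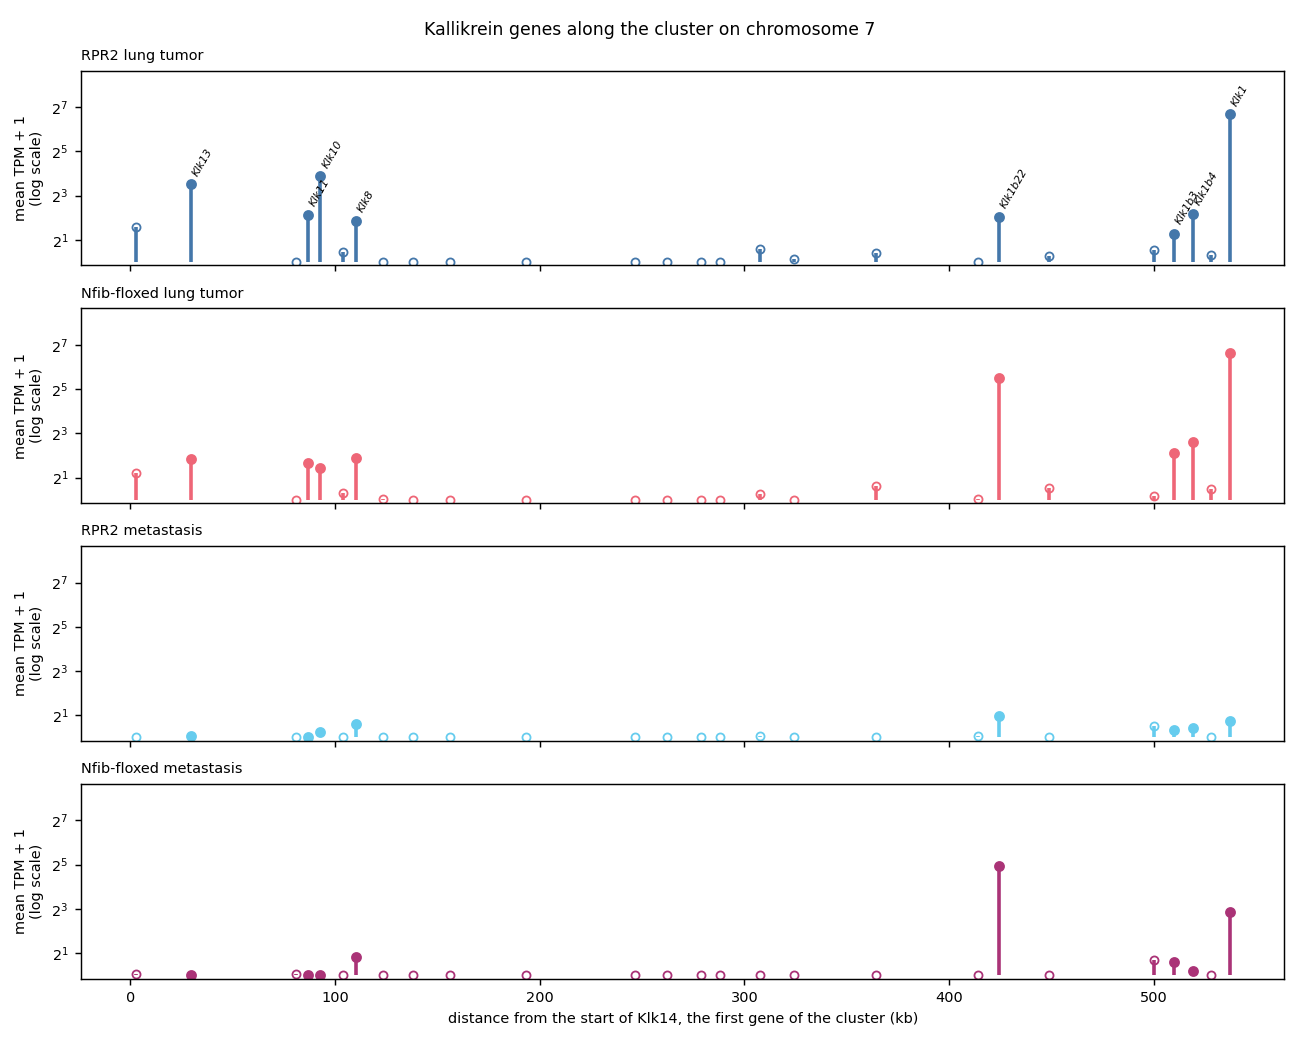
Mean level of each non-pseudogene kallikrein (TPM + 1, log scale) in the 4 groups, against the distance in kb from the start of Klk14, the first gene of the cluster. Filled points are the 8 members and open points the 18 other genes; Klk1b22 averaged 44.6 and 29.4 TPM in the Nfib-floxed groups and 3.05 and 0.982 TPM in the RPR2 groups.

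The groups were first checked on genes outside the cluster. Nfib itself was listed at 26.5 to 38.6 TPM in Nfib-floxed lung tumors, 28.3 to 118 TPM in RPR2 lung tumors, 41.3 and 46.1 TPM in Nfib-floxed metastases and 62.8 and 643 TPM in RPR2 metastases, so lung tumors of the genotypes overlapped and metastases did not. Which exons are floxed is not stated in the labels, so the level of the whole gene checks the genotype only in part. Chga, a neuroendocrine marker, was at 126 TPM or more in every library. Lung tumors held 1677 to 60565 TPM of 5 club cell genes (the secretory cells of the airway), with the RPR2 tumor of JHK1394 and the Nfib-floxed tumor of JHK1398 far above the rest. Scgb1a1, the main club cell secretory gene, alone made up 5.48% and 5.02% of those libraries, against at most 0.965% in the other lung tumors. Metastases held 9.88 to 197 TPM of the club cell genes. The sum of 8 hepatocyte genes was 8002 and 8267 TPM in the RPR2 metastases and 2425 TPM in the Nfib-floxed metastasis of JHK1399. In the library labelled as the Nfib-floxed metastasis of JHK1398 it was 82.9 TPM, below every lung tumor. In such bulk tissue, fewer cells of a type and less RNA per cell cannot be told apart.

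Differences were fitted with limma on log2(TPM + 1) for 15503 genes. To pass, a gene needed an adjusted p (Benjamini-Hochberg, over all of them) below 0.05. Differences below are on that log2 scale, with standard errors, and understate changes of low genes. The comparisons share groups, and so are not independent of each other.

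Klk1b22 stood higher in every Nfib-floxed library than in any RPR2 library. Its product is known as an EGF-binding protein. The RPR2 lung tumors were at 8.47 (JHK1373), 0.566 (JHK1394) and 0.121 TPM (JHK1548). The Nfib-floxed lung tumors were at 50.6 (JHK997), 61.5 (JHK1398) and 21.8 TPM (JHK1399). The metastases were at 1.50 (JHK1373) and 0.465 TPM (JHK1394) in RPR2 mice, and at 10.8 (JHK1398) and 48.0 TPM (JHK1399) in Nfib-floxed mice. The nearest values of the genotypes were 10.8 TPM in a metastasis and 8.47 TPM in a lung tumor, and within each tissue the gap was wider. Klk1b22 was 1 of 8 members with all 5 Nfib-floxed above all 5 RPR2 libraries, an order that 0.419% of all genes tested showed.

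The Nfib-floxed mean of Klk1b22 was 14.6 times the RPR2 mean in lung tumors (44.6 ± 20.5 against 3.05 ± 4.70 TPM, SD, n = 3 each). It was 29.9 times the RPR2 mean in metastases (29.4 ± 26.3 against 0.982 ± 0.731 TPM, SD, n = 2 each). On the log2 scale the difference was 4.04 ± 0.82 (SE) in lung tumors and 3.65 ± 1.0 in metastases. Neither passed limma's adjusted threshold. Without the club-rich lung tumors of JHK1394 and JHK1398 the lung difference was 3.40 ± 1.07, which did not pass. The metastasis difference was 4.68 ± 1.17 without the Nfib-floxed metastasis of JHK1398 and 2.62 ± 1.17 without that of JHK1399. In the metastases the hepatocyte sum moved with genotype too, at 8002 and 8267 TPM in RPR2 and 82.9 and 2425 TPM in Nfib-floxed mice, and its part in this difference was not tested. Within each tissue the RPR2 library with most Klk1b22 was that of JHK1373.

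Klk1b22 and Klk1 lie at the same end of the cluster. Among lung tumors, the Nfib-floxed ones of JHK997 and JHK1398 were high in both, whereas the RPR2 lung tumors were high in Klk1 and low in Klk1b22. The ratio of Klk1b22 to Klk1 in TPM was 0.00193 to 0.210 in RPR2 lung tumors and 0.336 to 2.94 in Nfib-floxed lung tumors, with no overlap. Klk1b22 alone already separated these lung tumors, so the ratio is not an independent result. The highest ratio, 2.94, was that of JHK1399, where Klk1 was at 7.39 TPM. In metastases the ratio was 0.447 and 5.02 in RPR2 mice and 4.44 and 6.20 in Nfib-floxed mice, and there the groups overlapped. Klk1b22 made up 77.2% and 79.8% of the members' summed TPM in the Nfib-floxed metastases. In the RPR2 lung tumor of JHK1394, which held 207 TPM of Klk1, it made up 0.201%.

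**Figure D3:**
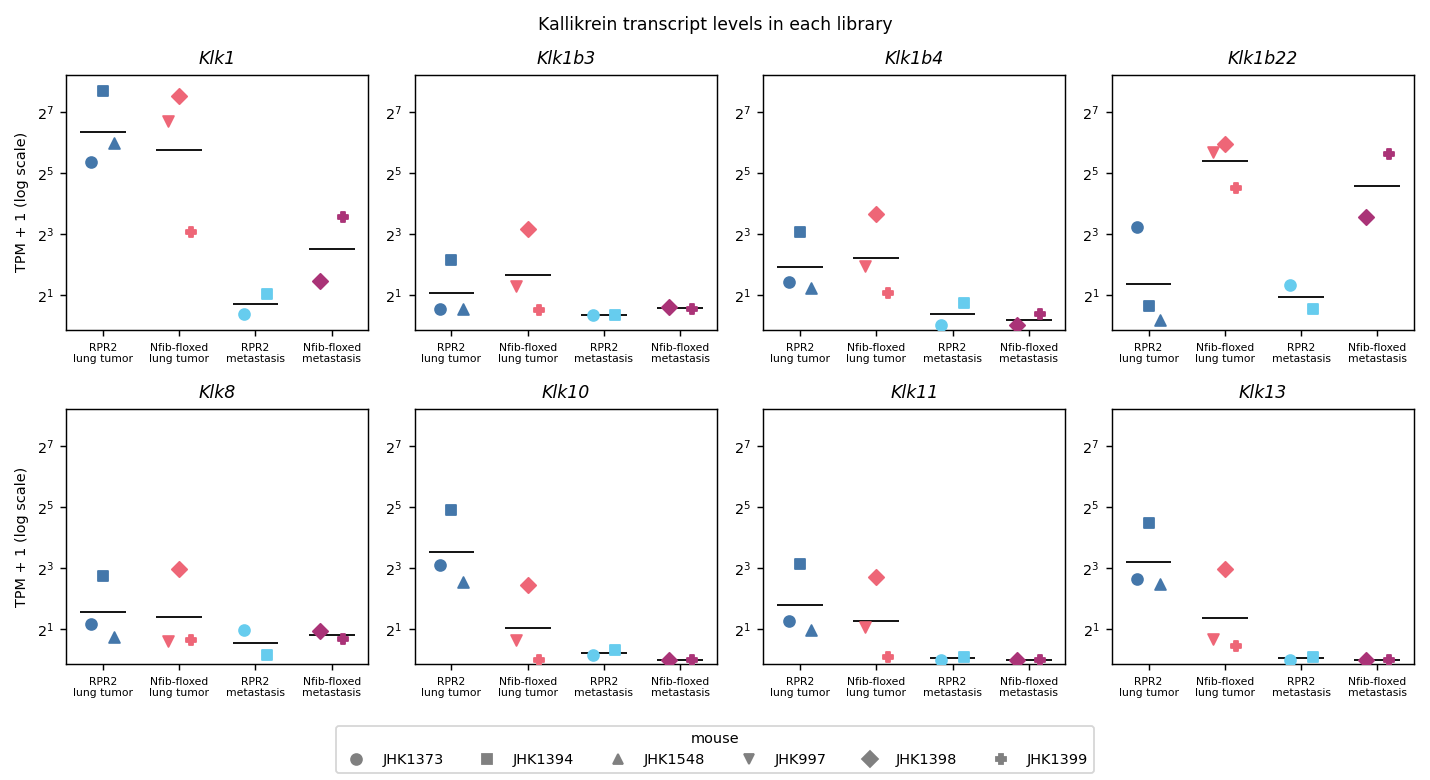
Level of each member in each of the 10 libraries (TPM + 1, log scale) by group, with symbols for the mouse and a line at the group's mean log2 value. Klk1b22 is at 10.8 to 61.5 TPM in the 5 Nfib-floxed libraries and at 0.121 to 8.47 TPM in the 5 RPR2 libraries, while Klk10, Klk11 and Klk13 are at or near 0 in the 4 metastases.

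The upstream 250 bases of Klk1b22 are shown beside those of Klk1b4 and Klk1, a pair of copies whose lung tumor values overlapped between genotypes, with every NFI core motif (TTGGC on either strand, the motif at each end of the binding site of nuclear factor I) in capitals. They come from RefSeq (GRCm38.p6), plus strand, and end at the base before the RefSeq start.
Klk1b22, chr7:44112423-44112672: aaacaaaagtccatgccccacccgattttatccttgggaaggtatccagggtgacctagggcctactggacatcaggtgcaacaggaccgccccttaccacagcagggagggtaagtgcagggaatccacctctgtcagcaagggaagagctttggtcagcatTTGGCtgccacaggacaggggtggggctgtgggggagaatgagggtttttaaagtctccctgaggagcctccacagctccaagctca
Klk1b4, chr7:44207183-44207432: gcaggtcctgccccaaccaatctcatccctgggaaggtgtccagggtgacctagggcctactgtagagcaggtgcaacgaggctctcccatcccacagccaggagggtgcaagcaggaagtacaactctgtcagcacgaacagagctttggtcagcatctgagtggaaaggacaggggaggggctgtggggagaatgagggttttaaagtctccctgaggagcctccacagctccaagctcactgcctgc
Klk1, chr7:44225110-44225359: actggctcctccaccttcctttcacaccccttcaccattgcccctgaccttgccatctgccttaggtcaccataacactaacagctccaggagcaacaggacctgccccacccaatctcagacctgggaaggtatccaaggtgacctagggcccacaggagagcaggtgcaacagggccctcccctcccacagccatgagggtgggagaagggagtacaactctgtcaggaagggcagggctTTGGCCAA
Klk1b22 held 1 core motif, starting at -87 from the RefSeq start. Klk1 held 2 that overlap each other, at -8 and -5, and Klk1b4 held none. The window of Klk1b3, a copy whose lung tumor values overlapped too, is not printed and also held none. Upstream windows were found for 8 of 8 members, and 3 of 8 held the core motif (Klk1, Klk1b22 and the first of 2 windows of Klk11), against 41.5% of all 32851 upstream windows of this length. The full palindrome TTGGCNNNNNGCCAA, a core motif on each strand 5 bases apart, was found in no member and in 0.0365% of all windows. These matches describe letters only, and no binding was measured. The upstream windows of Klk1b22 and Klk1b4 were 81.6% identical over 245 aligned columns, and those of Klk1b22 and Klk1 76.9% over 160. The windows of Klk1b22 and Klk1 end at different points of the sequence they share. The bases of Klk1 that match the Klk1b22 motif lie past the end of the Klk1 window and were not searched. Motif positions and counts of these windows are therefore not directly comparable.

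Klk1, which encodes tissue kallikrein, had the highest mean of the 8 members at 61.7 TPM over the 10 libraries. Lung tumors were at 40.4, 207 and 62.7 TPM in RPR2 mice JHK1373, JHK1394 and JHK1548. The Nfib-floxed lung tumors were at 103, 183 and 7.39 TPM in JHK997, JHK1398 and JHK1399. The metastases were at 0.298 and 1.04 TPM in RPR2 mice JHK1373 and JHK1394 and at 1.74 and 10.8 TPM in Nfib-floxed mice JHK1398 and JHK1399. Lung tumors of the genotypes overlapped (log2 difference -0.59 ± 1.06). Only the lung tumor of JHK1399 came near the metastases, and its own metastasis was higher.

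Between metastases and lung tumors of RPR2 mice the Klk1 difference was -5.65 ± 1.18, which passed. In Nfib-floxed mice the difference was -3.26 ± 1.18 and did not pass. The difference between these 2 effects was 2.39 ± 1.67 and did not pass either. Without the Nfib-floxed lung tumor of JHK1399, the genotype difference in lung tumors turned from -0.59 to 0.76.

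Klk1b4, known as a kallikrein without protease activity, was at 1.70, 7.40 and 1.35 TPM in the RPR2 lung tumors of JHK1373, JHK1394 and JHK1548. It was at 2.86, 11.5 and 1.10 TPM in the Nfib-floxed lung tumors of JHK997, JHK1398 and JHK1399. Metastases were listed at 0 and 0.658 TPM in RPR2 mice JHK1373 and JHK1394, and at 0 and 0.294 TPM in Nfib-floxed mice JHK1398 and JHK1399. All 6 lung tumors were above all 4 metastases, and the genotypes overlapped in both tissues. The tissue difference was -1.55 ± 0.78 in RPR2 and -2.04 ± 0.78 in Nfib-floxed mice, and neither passed.

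Klk1b3 was lower than Klk1b4 in each lung tumor, at 0.451, 3.38 and 0.452 TPM in RPR2 mice JHK1373, JHK1394 and JHK1548. The Nfib-floxed lung tumors of JHK997, JHK1398 and JHK1399 were at 1.42, 7.92 and 0.409 TPM. All 4 metastases were at 0.261 to 0.528 TPM, a range that the lowest lung tumors share. No difference of Klk1b3 passed.

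Klk10 and Klk13 stood higher in RPR2 than in Nfib-floxed lung tumors on average, the reverse of Klk1b22. Klk10, a kallikrein studied as a gene silenced in several cancers, was at 7.57, 28.9 and 4.81 TPM in the RPR2 lung tumors of JHK1373, JHK1394 and JHK1548. The Nfib-floxed lung tumors of JHK997 and JHK1398 were at 0.548 and 4.49 TPM, and that of JHK1399 was listed at 0. The RPR2 metastases were at 0.0961 and 0.243 TPM, and both Nfib-floxed metastases were listed at 0. In lung tumors the lowest RPR2 value, 4.81 TPM, and the highest Nfib-floxed value, 4.49 TPM, were close. The metastases of both genotypes lay near 0, with a log2 difference of -0.22 ± 0.88 that did not pass.

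The genotype difference of Klk10 in lung tumors was -2.48 ± 0.72 and did not pass. The tissue difference in RPR2 mice was -3.29 ± 0.81 and passed, and in Nfib-floxed mice it was -1.03 ± 0.81 and did not. The difference between these effects, 2.26 ± 1.14, did not pass.

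Klk13, a secreted kallikrein known from epithelia, was at 5.29, 21.5 and 4.51 TPM in the RPR2 lung tumors of JHK1373, JHK1394 and JHK1548. It was at 0.594, 6.87 and 0.357 TPM in the Nfib-floxed lung tumors of JHK997, JHK1398 and JHK1399. Of the metastases, that of the RPR2 mouse JHK1394 was at 0.0688 TPM and the other 3 were listed at 0. The lung tumors overlapped between genotypes through JHK1398 (difference -1.84 ± 0.73), and every lung tumor was above every metastasis. The tissue difference was -3.15 ± 0.81 in RPR2 mice, which passed, and -1.36 ± 0.81 in Nfib-floxed mice, which did not. Over the 10 libraries, log2 levels of Klk10 and Klk13 had a Pearson r of 0.984, the highest of all pairs of members. These points share libraries, tissue and cell makeup.

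Klk11, known as hippostasin or trypsin-like serine protease, was lower than Klk13 in 5 of 6 lung tumors. It was at 1.39, 7.74 and 0.970 TPM in the RPR2 lung tumors of JHK1373, JHK1394 and JHK1548. The Nfib-floxed lung tumors of JHK997, JHK1398 and JHK1399 were at 1.09, 5.46 and 0.0552 TPM. The RPR2 metastasis of JHK1394 was at 0.0479 TPM and the other 3 metastases were listed at 0. Lung tumors lay above metastases throughout, by a narrow margin in JHK1399, and the genotypes overlapped. Its tissue difference was -1.75 ± 0.81 in RPR2 and -1.28 ± 0.81 in Nfib-floxed mice, and neither passed.

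Klk8, the neuropsin gene, overlapped between the tissues. The RPR2 lung tumors were at 1.26, 5.71 and 0.668 TPM in JHK1373, JHK1394 and JHK1548. The Nfib-floxed lung tumors were at 0.512, 6.88 and 0.572 TPM in JHK997, JHK1398 and JHK1399. Metastases were at 0.959 and 0.0995 TPM in RPR2 mice JHK1373 and JHK1394, and at 0.919 and 0.601 TPM in Nfib-floxed mice JHK1398 and JHK1399. Only the lung tumors of JHK1394 and JHK1398 stood apart, and no difference passed.

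By comparison, no member passed for the genotype in lung tumors, where limma called 0% of all genes. At an unadjusted p under 0.05 the count was 1230 of all genes (7.93%) and 3 of 8 members (Klk1b22, Klk10 and Klk13). For the genotype in metastases, 0 of 8 members passed beside 2.04% of all genes, and 1 of 8 (Klk1b22) had an unadjusted p under 0.05, as did 12.8% of all genes. For metastases against lung tumors, 3 of 8 members fell in RPR2 mice (Klk1, Klk10 and Klk13), beside 5.61% of all genes. In Nfib-floxed mice 0 of 8 passed, beside 0.123% of all genes, and 2 of 8 (Klk1 and Klk1b4) had an unadjusted p under 0.05, as did 9.39% of all genes. Klk1b4, Klk11 and Klk13 were the 3 of 8 members with all lung tumors above all metastases, an order that 4.16% of all genes showed. Since the members were chosen with these values known, these counts are not read further.

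The median difference of the members between metastases and lung tumors was -1.65 in RPR2 mice, where that of all genes was -0.154. In Nfib-floxed mice it was -1.17, beside -0.0476 for all genes. Klk1b3, Klk1b4, Klk8, Klk10, Klk11 and Klk13 were below 1 TPM in every metastasis. They reached a mean of 1 TPM only through lung tumors. Lower medians in metastases were therefore in part fixed by the choice of members, and are not read as a result. The median genotype difference was -0.33 in lung tumors (all genes -0.0984) and 0.10 in metastases (all genes 0). For the difference between the tissue effects of the genotypes, 0 of 8 members passed in limma, beside 0.581% of all genes. At an unadjusted p under 0.05 there were 0 of 8 members and 9.68% of all genes.

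The count of 3 in RPR2 mice rests on single libraries. Leaving out the RPR2 metastasis of JHK1394 gave 0, and so did leaving out that of JHK1373 or the lung tumor of JHK1394. Leaving out the lung tumor of JHK1373 gave 1. With mouse as a fixed replicate block it was 1 (Klk10), and with mouse as a random replicate block it was 3.

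The 4 mice that gave both tissues allowed each metastasis to be set beside a lung tumor of its own mouse. Klk1b4, Klk11 and Klk13 were lower in the metastasis in 4 of 4 mice. In JHK1399 the lung tumor was itself low, at 0.0552 TPM of Klk11 and 0.357 TPM of Klk13. The share of all genes lower in every mouse was not computed. Klk1 was lower in 3 and higher in JHK1399, where it went from 7.39 TPM in the lung tumor to 10.8 TPM in the metastasis. Klk1b22 was also lower in 3 and higher in JHK1399, from 21.8 to 48.0 TPM. In JHK1394 Klk1b22 was low in both tissues, at 0.566 and 0.465 TPM. Klk10 was lower in 3 of 4 mice and listed at 0 in both tissues of JHK1399. In that mouse the lung tumor was also the lowest of the 6 lung tumors for 6 of the 8 members.

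**Figure D4:**
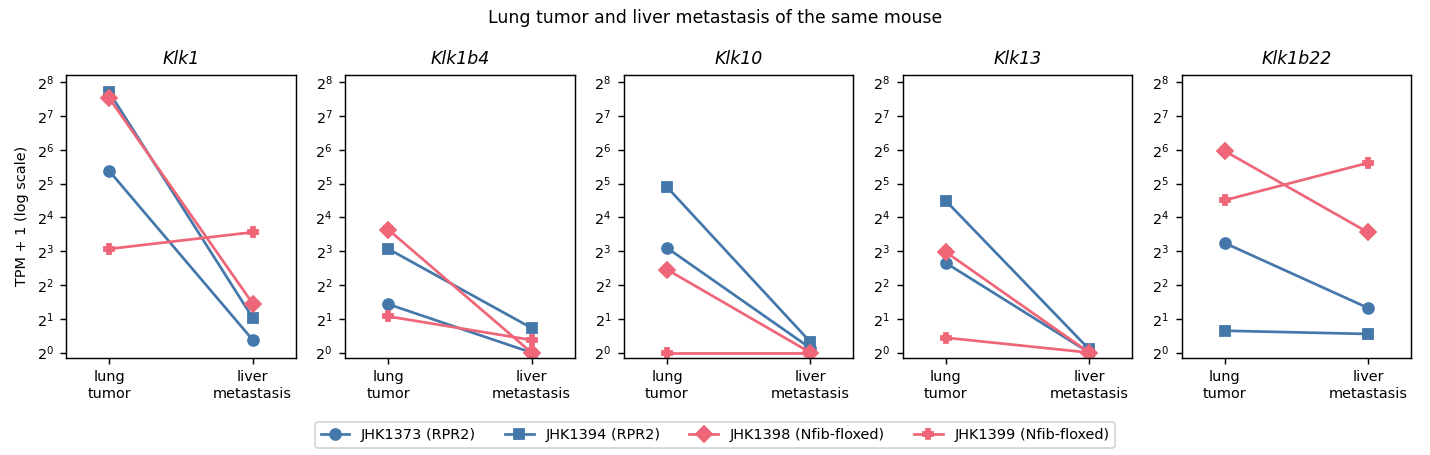
Levels of 5 members (TPM + 1, log scale) in the lung tumor and the liver metastasis of the same mouse, joined by a line for each of the 4 mice, with color for the genotype. Klk1b4 and Klk13 are lower in the metastasis of all 4 mice; Klk1 and Klk1b22 are lower in 3 and higher in the metastasis of JHK1399.

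Members other than Klk1b22 and Klk10 were highest in the lung tumors with many club cell transcripts. The lung tumors of JHK1394 and JHK1398, with 60565 and 55984 TPM of the 5 club cell genes, were also the top pair of lung tumors for Klk1, Klk1b3, Klk1b4, Klk8, Klk11 and Klk13. Without this pair Klk1b3, Klk1b4, Klk8 and Klk11 averaged less than 1 TPM. Their peak there was thus in part fixed by the choice of members. The share of all genes with the same top pair was not computed. For Klk10 the highest was JHK1394 and the next JHK1373. The lung tumor of JHK1398, at 4.49 TPM of Klk10, lay below those of JHK1373 (7.57 TPM) and JHK1548 (4.81 TPM). The lung tumor of JHK1399 had the lowest club cell sum, 1677 TPM, and the lowest Klk1, Klk1b3, Klk1b4, Klk11 and Klk13 and listed Klk10 at 0. Klk1b22 did not follow: the RPR2 tumor of JHK1394 held 0.566 TPM and the Nfib-floxed tumor of JHK1398 held 61.5 TPM.

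Club cell genes differed between tissues as well, with 4 of 5 lower in RPR2 metastases and 1 of 5 (Cbr2) lower in Nfib-floxed metastases by limma. The shares called over all genes were 5.61% and 0.123%. Alveolar type 2 genes reached 7834 and 3135 TPM in the lung tumors of JHK1394 and JHK1398. They were at most 819 TPM in the other lung tumors and 59.3 TPM in a metastasis. The lung tumors of JHK1394 and JHK1398 were also highest for alveolar type 1 genes (816 and 266 TPM). The same held for macrophage and monocyte genes (4522 and 870 TPM), so this order was not particular to club cell genes. Of squamous and basal genes, Sprr3 was listed at 0 in all libraries and Krt5 was at or below 0.314 TPM. Sprr1a was the exception, at 2.92 to 154 TPM in lung tumors and 0.375 to 15 TPM in metastases. The part of these cell types in the levels of the kallikreins was not tested. Without the lung tumors of JHK1394 and JHK1398, the differences of Klk1, Klk10 and Klk13 between metastases and lung tumors of RPR2 mice were -4.98 ± 1.15, -2.60 ± 0.46 and -2.51 ± 0.42, and Klk10 and Klk13 passed. The other members fell below the mean of 1 TPM in that fit, apart from Klk1b22.

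**Figure D5:**
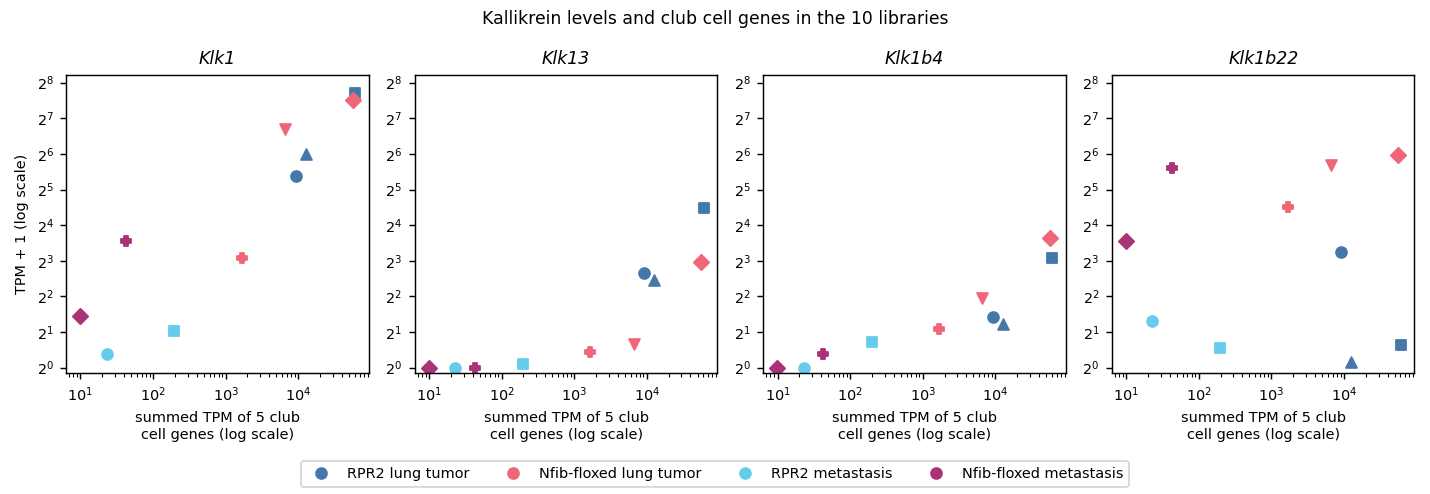
Levels of 4 members (TPM + 1, log scale) against the summed TPM of 5 club cell genes (log scale) in the 10 libraries, with color for the group and the mouse symbols of the plot of all members. Klk1, Klk13 and Klk1b4 are highest in the lung tumors of JHK1394 and JHK1398, at 60565 and 55984 TPM of club cell genes, whereas Klk1b22 separates by genotype.

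Genes outside the family with the most similar levels over the 10 libraries were sought for each member, by Pearson r of log2(TPM + 1). For Klk1b22 the closest was Tnfrsf4, which encodes OX40, a costimulatory receptor on T cells (r = 0.906). It was at 7.51 to 11.4 TPM in Nfib-floxed lung tumors and at 1.02 to 2.12 TPM in RPR2 lung tumors. In the metastases it was at 2.66 and 8.92 TPM in Nfib-floxed mice and 2.2 and 1.70 TPM in RPR2 mice. The next were Abcb8 and Xrcc1, both with r = 0.895.

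For Klk1 the closest was Oas2, an interferon-induced antiviral enzyme (r = 0.983), followed by Cxcl17, a mucosal chemokine (r = 0.97). Klk13 came closest to Chad, which encodes the matrix protein chondroadherin (r = 0.99), and Klk10 to Lhfpl1 (r = 0.984). Chad reached 66.6 TPM in the lung tumor of RPR2 mouse JHK1394 and was at most 0.608 TPM in a metastasis. Klk1b3 came closest to Barx2, Klk1b4 to Blnk, Klk11 to Rhog and Klk8 to Clec4b1, with r of 0.978, 0.968, 0.972 and 0.929. These are the best among all genes tested, over 10 libraries that share tissue and cell makeup, and they carry no p.

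Among the members, r with Klk1b22 ran from -0.329 (Klk10) to 0.321 (Klk1b3), whereas all pairs without Klk1b22 had r of 0.56 or more.

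Of the nearest named genes on either side of the cluster, Zfp719, Siglece, Ctu1, Clec11a and Shank1 averaged at least 1 TPM. Ctu1, a tRNA-modifying enzyme just before Klk14, ranged from 6.31 to 11.8 TPM over the 10 libraries. Shank1, a synaptic scaffold gene after Klk1, ranged from 9.24 to 61.7 TPM. None of these 5 genes passed in any of the 4 comparisons.

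The substrates and receptors of tissue kallikrein were examined as the kinin system, 11 genes of which 8 were tested. In RPR2 mice 3 of 8 were higher in metastases than in lung tumors and 1 of 8 was lower, beside 5.61% of all genes called. Kng1, which encodes kininogen, the precursor of kinins, was at 117 and 125 TPM in RPR2 metastases and at 0.827 to 7.99 TPM in RPR2 lung tumors. Kng1 thus rose by 4.96 ± 1.02 on the log2 scale (limma adjusted p = 0.018). Kng2 and F12, the gene of coagulation factor XII, rose by 4.36 ± 0.73 and 4.59 ± 0.71. Ace, whose enzyme breaks down bradykinin, fell by 3.60 ± 0.74 (limma adjusted p = 0.018), from 19.6 to 76.0 TPM in lung tumors to 1.47 and 2.83 TPM in metastases.

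No kinin gene passed in the other 3 comparisons. Kng1 was at 1.27 TPM in the Nfib-floxed metastasis of JHK1398 and at 34.0 TPM in that of JHK1399, the same order as their hepatocyte sums of 82.9 and 2425 TPM. The part of hepatocytes in these values was not tested. The bradykinin receptors were low, with Bdkrb2 at or below 0.685 TPM in every library, and were not tested. The libraries with most Klk1, the lung tumors of JHK1394 and JHK1398, held 2.63 and 2.34 TPM of Kng1.

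Protease-activated receptors are cut by several kallikreins, and 2 of 4 were tested. F2r was at 6.40 to 63.2 TPM and F2rl1 at 0 to 5.12 TPM, and neither passed in any comparison. Egf, the growth factor that EGF-binding kallikreins are named for, was at 1.45 to 4.34 TPM and did not pass in any comparison, and neither did its receptor gene Egfr.

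Of 17 inhibitors of kallikreins and related proteases, 11 were tested. Spint1, a membrane-bound inhibitor of trypsin-like proteases, was at 114 to 244 TPM in RPR2 lung tumors and at 1.97 and 2.56 TPM in RPR2 metastases. In Nfib-floxed metastases it was at 67.4 and 167 TPM. Spint1 was thus 5.04 ± 0.59 higher in metastases of Nfib-floxed than of RPR2 mice (limma adjusted p = 0.0022) and fell by 5.56 ± 0.54 from lung tumor to metastasis in RPR2 mice. Spint2 moved the same way, by 2.30 ± 0.43 and -2.70 ± 0.40. Serpina1a, an antitrypsin gene of hepatocytes, moved the opposite way, by -4.37 ± 0.90 and 5.35 ± 0.82. None of the 11 passed for the genotype in lung tumors or for the tissue in Nfib-floxed mice.

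Of 16 other trypsin-like proteases, 8 were tested. In metastases, where 2.04% of all genes passed, 3 of 8 were higher with the Nfib-floxed genotype than in RPR2. They were Prss8 (prostasin), St14 (matriptase) and Tmprss4, all membrane-anchored epithelial proteases, with log2 differences of 3.43 ± 0.42, 4.22 ± 0.48 and 4.71 ± 0.37. The same 3 and Tmprss2 fell from lung tumor to metastasis in RPR2 mice, where 5.61% of all genes passed. In lung tumors, Tmprss4 was at 60.4 to 71.0 TPM in Nfib-floxed and 72.4 to 100.5 TPM in RPR2 mice, with a log2 difference of -0.33 ± 0.30 that did not pass. In the metastases, 5 genes listed for cholangiocytes (bile duct cells) were summed. They came to 585 and 708 TPM in RPR2 mice and to 912 and 1883 TPM in Nfib-floxed mice. Of these, 2 of 5 passed as higher in Nfib-floxed mice, the epithelial markers Krt7 and Epcam. Krt19 did not pass (1.82 ± 1.51). Spp1 and Sox9 went the other way without passing, with log2 differences of -2.56 ± 1.85 and -0.95 ± 0.75. Krt7 and Epcam were also at 404 and 316 TPM or more in every lung tumor, so they do not mark bile duct cells alone here. The part of cell makeup in these protease levels was not tested.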

How the data were processed

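Per the labels' protocols, polyA-selected RNA of snap-frozen, macrodissected tumors was made into libraries by NEBNext Ultra II chemistry. Per the submitters' processing notes, the tools were Salmon 0.12.0, bcl2fastq 2.20 and R 4.1.0, with build GRCm38. The sources used here do not give the annotation version, settings or strand. Deposited values are TPM per gene and sum to 1000000 in each library. Depth cannot be read from TPM, so no counting interval is given. Salmon divides reads among similar transcripts, which bears on the Klk1 copies.

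Groups (4) and mice (6) of the 10 libraries come from the labels. The members and gene lists were chosen with earlier results of these data known. A single limma 3.58.1 model of the 4 groups (R 4.3.3, mean trend, two-sided, residual degrees of freedom 6, prior 4.56) was fitted to log2(TPM + 1) of the 15503 genes that averaged 1 TPM or more, with Benjamini-Hochberg adjustment over all of them, and was tested on simulated data. No replicate block was used. Alternatives were pseudocounts of 0.1 and 5, no filter or one of 5 TPM, quantile normalization, median centring, mouse as a replicate block, only the 2 groups compared, robust moderation and libraries left out. Lung tumors and metastases are paired by the mouse tags in the labels. After subtracting group means, the 2 libraries of a mouse correlated at -0.023 to 0.049. Each metastasis group held 2 libraries, whose deviations from their mean mirror each other. These correlations are thus not independent, and cannot show that the pairing is negligible.

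Named genes were all members, the other Klk genes, the nearest named neighbours, the gene lists, and the 3 genes most like each member. Symbols with several rows kept the row with the higher mean in the lists. Identities, shared 31-base stretches and motifs were computed from GENCODE M21 transcripts and RefSeq upstream windows with Python 3.11.15, pandas 2.3.3 and Biopython 1.88; figures used matplotlib 3.10.9. Results for some listed genes are not reported here.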

Additional observations from a re-analysis of the deposited data

How the results depend on the processing

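The count of members that fell in RPR2 metastases was the one that moved. It was 3 of 8 in the fit reported. It was 0 with a pseudocount of 5 or with no filter on low genes. It was 2 with a pseudocount of 0.1 (Klk1 and Klk13) or with robust moderation (Klk1 and Klk10), and 3 with only the 2 groups compared. It was 1 with a filter of 5 TPM, with quantile normalization or with median centring (Klk1 each time), and 1 with mouse as a fixed replicate block (Klk10). Leaving out 1 library at a time gave 0 to 2. The pairing by mouse, as a random replicate block, changed no call. For the other 3 comparisons the count was 0 under every alternative. Causes were not tested, apart from the fewer members that a filter of 5 TPM leaves. The Klk1b22 difference in lung tumors was 5.24 with a pseudocount of 0.1, 2.67 with one of 5 and 4.98 without the RPR2 tumor of JHK1373; in metastases it was 2.62 without that of JHK1399. Group sizes of 2 and 3 and an unknown depth limit all of these values.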

Other observations

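Gm10109, an annotated pseudogene on the opposite strand that overlaps Klk1 but none of its exons, was listed at 0.224 to 1.90 TPM over the 10 libraries. Of the 11 kallikrein pseudogenes, 6 were listed at 0 in every library and none exceeded 0.422 TPM. The summed TPM of the 8 members was 31.7 to 288 in lung tumors, 2.88 and 3.11 in RPR2 metastases and 14.0 and 60.2 in Nfib-floxed metastases. Klk1b24, a Klk1-type copy outside the 8 members, was above 0 in all 10 libraries, at 0.101 to 0.870 TPM.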
